A study of Danio rerio with 6 samples.

Results

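The genes described here are tagln, acta2, desmb and smtnb, which encode cytoskeletal proteins of smooth muscle. They were chosen by their measured log2 values, high in both groups of collecting ducts against whole kidney, so that difference is given as a description without a test. Each gene had 1 probe set that named it alone. These 4 probe sets stand among 15617 on the array, and the 4 genes among 8781 named by a probe set of their own.

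RNA of adult zebrafish was measured on 6 Affymetrix arrays, each with a pool of 5 fish. All fish, controls included, carried Tg(jam1a:EGFP), a green fluorescent reporter named for jam1a, a gene of epithelial tight junctions. The 3 groups of 2 arrays were unirradiated collecting ducts, collecting ducts of fish given 25 Gy of X-rays, and whole kidney, a tissue that contains the ducts. The irradiated arrays were identified from the prefix ir of their titles and the series' design text, as no label of the arrays states the treatment. Ducts were isolated with the help of their fluorescence, and how much attached tissue came with them is not stated. Neither are the age in months, the sex or the time between irradiation and dissection. The replicates are described as independent pools.

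Smooth muscle cells contract when calcium activates myosin light chain kinase, whose phosphorylation of myosin lets it pull on actin filaments. Their filaments carry alpha actin and transgelin, their intermediate filaments carry desmin, and smoothelin marks cells with a mature contractile apparatus. Such cells coat urinary ducts and blood vessels in vertebrates, and the genes are widely regulated through serum response factor and its coactivators of the myocardin family.

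Transgelin is an actin-binding protein of the calponin family and is encoded by tagln. Its probe set read 11.90 and 11.71 on the log2 scale in unirradiated ducts, 11.03 and 11.74 in irradiated ducts, and 8.81 and 6.82 in whole kidney. All 4 duct arrays were above both kidney arrays, and the lowest duct value exceeded the highest kidney value by 2.21 on the log2 scale. The mean was 11.80 ± 0.13 (SD, n = 2) in unirradiated ducts, 11.38 ± 0.51 in irradiated ducts and 7.82 ± 1.41 in whole kidney, a log2 difference of 3.99 (15.9-fold) for unirradiated and 3.57 (11.8-fold) for irradiated ducts. These are bulk samples, in which fewer cells of a type and less RNA per cell cannot be told apart.

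The smooth muscle alpha actin gene acta2 followed nearly the same course. Its values were 12.25 and 12.13 in unirradiated ducts, 11.76 and 12.39 in irradiated ducts, and 9.70 and 7.36 in whole kidney. The duct arrays lay within 0.63 of each other, while the kidney arrays differed by 2.34. The log2 difference from kidney was 3.67 (12.7-fold) for unirradiated and 3.55 (11.7-fold) for irradiated ducts.

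Desmin joins the contractile units of a muscle cell to each other and to its membrane. The probe set of desmb read 9.55 and 9.29 in unirradiated ducts, 8.56 and 9.72 in irradiated ducts, and 4.88 and 4.83 in whole kidney. Both kidney values lay under the array medians, which ran from 5.81 to 5.87, so they are not shown to be above background and the size of the difference is uncertain. The log2 differences, 4.56 (23.7-fold) and 4.28 (19.4-fold), were above those of the other 3 genes in both duct groups. Its 2 kidney arrays read nearly alike at this low level.

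The smoothelin gene smtnb read 9.59 and 9.79 in unirradiated ducts, 8.39 and 9.11 in irradiated ducts, and 5.95 and 5.11 in whole kidney. Its kidney mean of 5.53 ± 0.59 lay under the array medians, with replicate 1 slightly above. The log2 difference from kidney was 4.16 (17.9-fold) for unirradiated and 3.22 (9.32-fold) for irradiated ducts. Its unirradiated arrays were both above its irradiated arrays, the only one of the 4 genes for which the duct groups did not overlap.

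**Figure D1:**
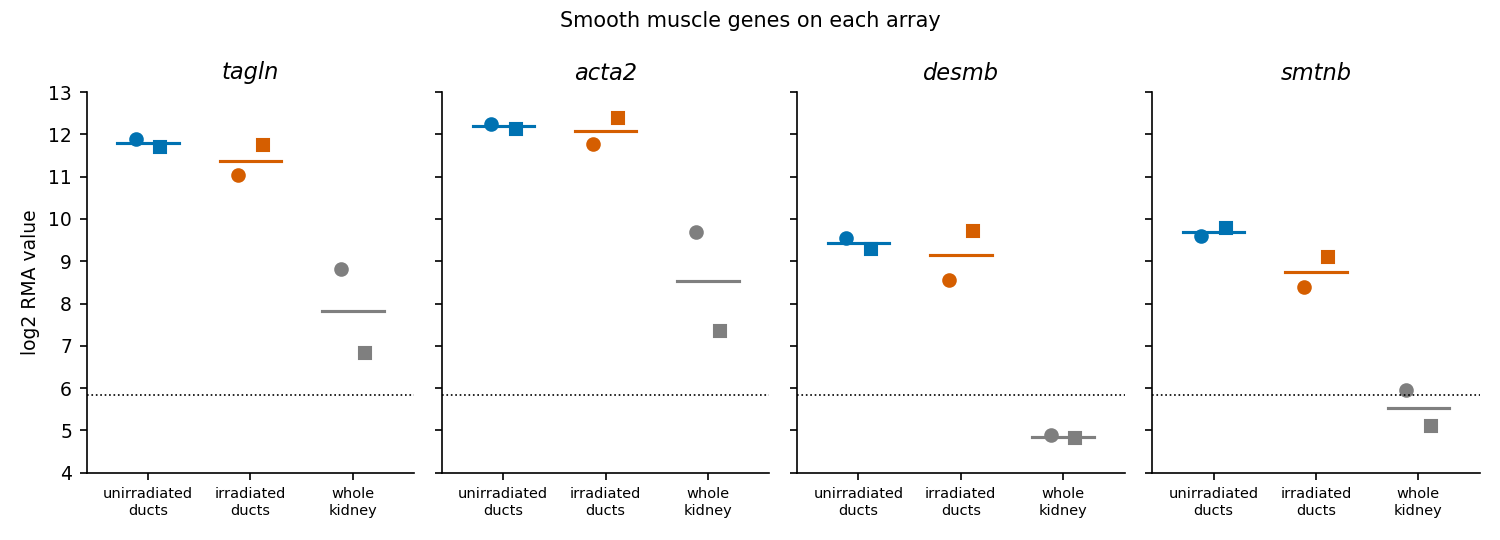
Log2 RMA values of the 4 smooth muscle genes on each array. Circles are replicate 1, squares replicate 2, horizontal bars the mean of 2 arrays, and the dotted line the mean of the 6 array medians. All 4 duct arrays lie above both kidney arrays in each panel, and the kidney arrays lie apart for tagln and acta2; both kidney values of desmb lie under the dotted line.

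Every duct array was above every kidney array for 4 of 4 genes, as for 15.9% of all tested probe sets. In the limma fit over all 15502 tested probe sets, 4 of 4 were called higher in unirradiated ducts, where 4.27% of probe sets were, and 4 of 4 in irradiated ducts, where 6.21% were. The genes were selected on these contrasts, so nothing is read from the counts. The order of the group means was the same for all 4 genes, with unirradiated ducts first, irradiated ducts next and whole kidney last. Mean values of the duct groups were less than the SD of the irradiated pair apart for tagln, acta2 and desmb.

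The contrast that the choice did not use is irradiated against unirradiated ducts. None of the 4 genes was called in it by limma with Benjamini-Hochberg adjustment, against 0.168% of all probe sets, and 1 of 4 had an unadjusted p under 0.05, as had 2212 of the 15502 probe sets. That gene was smtnb, at -0.94 ± 0.36 (SE) on the log2 scale with a 95% interval from -1.82 to -0.05 (limma adjusted p = 0.333). Its groups did not overlap, which was so for 56.8% of all probe sets. The unirradiated values of 9.59 and 9.79 compare with 8.39 and 9.11 after irradiation, and the difference did not pass the threshold.

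The other 3 genes had intervals on both sides of 0. The log2 difference was -0.42 ± 0.64 for tagln (interval -1.99 to 1.15, limma adjusted p = 0.801). It was -0.11 ± 0.73 for acta2 (interval -1.90 to 1.68, limma adjusted p = 0.958). It was -0.28 ± 0.38 for desmb (interval -1.21 to 0.64, limma adjusted p = 0.77). In this fit each of these intervals reaches past a log2 difference of -1.

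The shared estimate of the spread takes in the kidney arrays, which were far apart for tagln and acta2. With the duct arrays fitted alone the difference for acta2 had an interval from -0.70 to 0.47 (limma adjusted p = 0.799), which does not reach -1, and that for tagln from -1.07 to 0.23 (limma adjusted p = 0.382). The interval of smtnb then ran from -1.59 to -0.28 (limma adjusted p = 0.129). The duct-only fit called 217 probe sets where the fit with kidney called 26, and none of the 4 genes was among them.

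**Figure D2:**
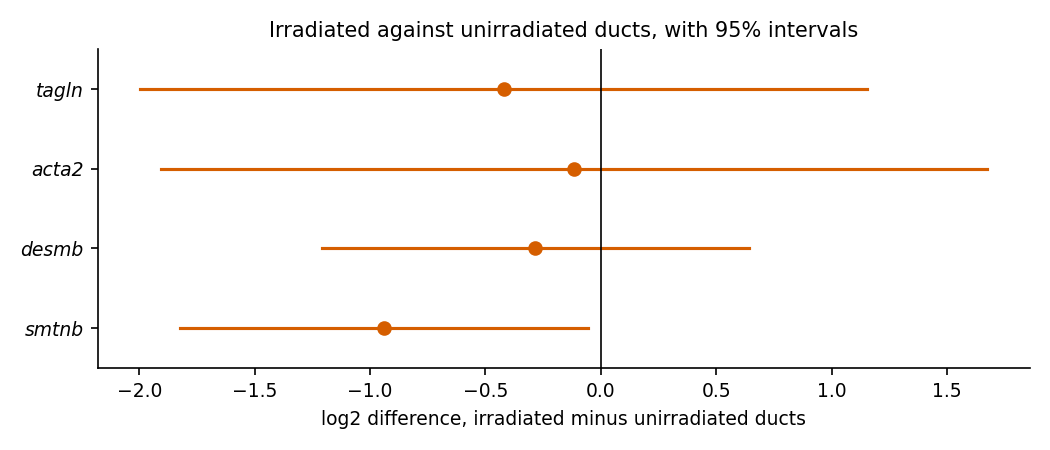
Log2 difference between irradiated and unirradiated ducts for the 4 genes, from the fit of all 6 arrays; points are estimates and lines 95% intervals. The intervals of tagln, acta2 and desmb cross 0, and that of smtnb ends at -0.05.

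Irradiated replicate 2 was above replicate 1 for all 4 genes, by 0.71 for tagln, 0.63 for acta2, 1.16 for desmb and 0.72 for smtnb. A gap of at least that size, in either direction, was seen between these arrays for 4.88%, 6.59%, 1.26% and 4.79% of probe sets in the same order. The unirradiated arrays differed by 0.18, 0.12, 0.26 and 0.20. Matrix genes of fibroblasts had the same order in the irradiated pair, with a median of -0.63 for replicate 1 minus replicate 2 and 1 of 12 genes above 0, and their part in the gap was not tested. Without irradiated replicate 1 the irradiation difference of acta2 turned from -0.11 to 0.20 and that of desmb from -0.28 to 0.29. Centring each array on its hybridisation controls turned all 4 differences positive, to between 0.41 and 1.23, a setting under which the median over the whole array went from -0.05 to 1.30.

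Whole kidney replicate 1 exceeded replicate 2 by 1.99 for tagln and 2.34 for acta2, a 3.98-fold and a 5.08-fold gap between 2 arrays of the same group. Gaps of that size were found in 1.45% and 0.948% of probe sets. The gap was 0.84 for smtnb, with replicate 2 under the array medians. For desmb it was 0.06, with both kidney values under the array medians. Whether desmb was too low there to show a gap was not tested. The estimate of the duct excess depends on this pool: without kidney replicate 1 the difference of unirradiated ducts was 4.98 for tagln and 4.84 for acta2, and without replicate 2 it was 2.99 and 2.49. The corresponding values of desmb were 4.59 and 4.54, nearly alike, with both kidney values under the array medians.

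Genes of fibroblasts and matrix were also higher in kidney replicate 1, 11 of 12 with a median gap of 0.92, while 50.7% of all genes were, with a median of 0.01. Among them, periostin (postnb) had a gap of 2.41 and the collagen genes col1a1a and col1a2 had gaps of 1.54 and 1.32. A second probe set of postnb read 5.03 and 5.07 in kidney, both under the array medians, and showed no such gap. Whether it was too low there to show one was not tested. The transcription factor gene hand2, active in mesenchyme, read 6.79 and 4.27. It comes from a list of 28 regulators of smooth muscle and had the largest gap of that list. Of the 28, 12 were higher in kidney replicate 1, with a median gap of -0.13. Skeletal muscle genes had a median gap of 0.07 and duct epithelium genes one of -0.33. Other lists were mostly higher in kidney replicate 1 too. These were 24 of 36 other contractile genes (median 0.23), 5 of 5 endothelial (0.275), 7 of 7 erythroid (0.30) and 2 of 2 pericyte genes (0.71). The largest gaps among the other contractile genes were 2.47 for tagln3b and 1.73 for cnn3b. Leukocyte and cardiac muscle genes had medians of -0.01 and -0.21, and the receptors and channels of smooth muscle one of -0.10. The hybridisation controls averaged 8.73 and 10.45 on kidney replicates 1 and 2, and their part in these gaps was not tested.

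**Figure D3:**
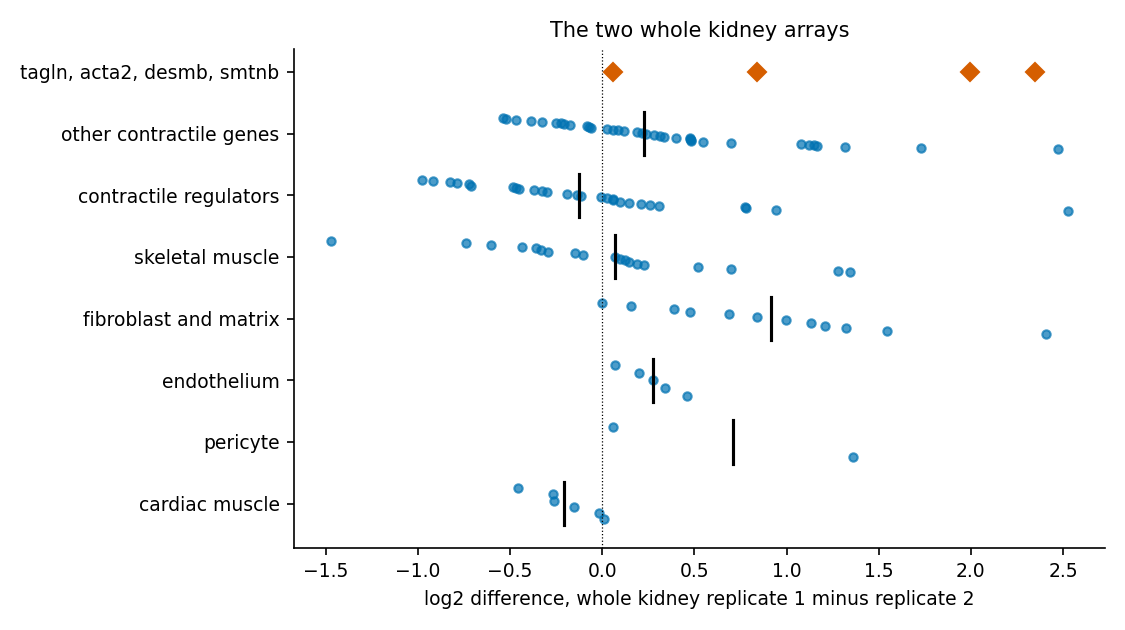
Log2 difference between whole kidney replicates 1 and 2; each dot is a gene, diamonds are the 4 smooth muscle genes and vertical bars list medians. The tagln and acta2 diamonds lie at 1.99 and 2.34, and desmb, low on both kidney arrays, lies at 0.06. Most fibroblast and matrix genes and all measured endothelial and pericyte genes lie to the right of 0.

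The remaining contractile genes of the array show how far the pattern reached. Of 36 measured genes of actin filaments, myosin regulation and their anchors, 3 were called higher in unirradiated ducts than in kidney (8.33%, against 4.11% of all genes) and 0 lower (3.33% of all genes). The median difference was 0.14, against -0.04 over all genes. In irradiated ducts 3 were higher (6.40% of all genes) and 0 lower (5.17% of all genes), with a median of 0.09 against -0.07. Between the duct groups 0 of 36 were called by limma, against 0.137% of all genes, and the lowest adjusted p was 0.281.

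The called genes were drawn from a list of contractile genes, so their link to contraction was set by the list. The myosin light chain kinase gene mylka read 10.24 and 10.28 in unirradiated ducts, 10.58 and 10.61 in irradiated ducts, and 8.58 and 8.34 in kidney. It was higher by 1.80 ± 0.16 and 2.13 ± 0.16 (limma adjusted p = 0.00708 and 0.00277), and its second probe set was higher by 1.51 and 2.06. The filamin C gene flncb, which encodes an actin crosslinker of muscle, was higher by 3.03 ± 0.44 in unirradiated and 2.58 ± 0.44 in irradiated ducts (limma adjusted p = 0.0203 and 0.0213). The myosin essential light chain gene myl6 was higher in unirradiated ducts by 2.53 ± 0.52 (limma adjusted p = 0.0461) and read 2.21 ± 0.52 in irradiated ducts (limma adjusted p = 0.0533).

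In irradiated ducts the third gene was ppp1r14ab, whose family inhibits myosin phosphatase, higher by 2.02 ± 0.41 (limma adjusted p = 0.0354). It read 1.01 ± 0.41 in unirradiated ducts (limma adjusted p = 0.188). The phosphatase targeting subunit gene ppp1r12a stood at 0.92 ± 0.20 in unirradiated ducts (limma adjusted p = 0.0504). There the calponin gene cnn3a was at 0.77 and the small GTPase gene rhoab at -1.32, and none of these passed. The counts without single arrays stand beside the number of calls on the whole array. Without unirradiated replicate 1 or 2, limma called 0 of 15502 probe sets between unirradiated ducts and kidney (2777 and 2536 had an unadjusted p under 0.05), so no gene of any list could be called there. On the unirradiated and kidney arrays alone that contrast had 422 calls in place of 1126. Leaving out either irradiated array gives this same fit, as the 1 array left adds nothing to the spread. It therefore says nothing about dependence on that array. The same holds below for either unirradiated array in the contrast of irradiated ducts with kidney (783 calls). For irradiated ducts the calls went from 1620 to 337 and 308 without irradiated replicates 1 and 2, and 1 gene of the contractile list was then called. Without kidney replicate 2 there were 3373 calls in unirradiated ducts, 5 of them higher contractile genes, and without kidney replicate 1 there were 2417 in irradiated ducts, again with 5.

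Duplicates and relatives of the 4 genes read differently, and are named here for their kinship and not by the size of their change. The other desmin gene, desma, stayed between 5.08 and 5.76 on all 6 arrays, under the array medians, with a difference of 0.26 ± 0.19 for unirradiated ducts (limma adjusted p = 0.43). The transgelin relative tagln2, found in many cell types, was at 0.70 ± 0.18 (limma adjusted p = 0.0759) and tagln3b at -0.80 ± 0.77 (limma adjusted p = 0.549). The broadly expressed actin genes actb1 and actb2 were each at 0.01, with values from 12.39 to 12.90 on all arrays. Of 11 smooth muscle markers listed for this work, 5 were measured, the 4 genes and mylka, and the other 6, among them the smooth muscle myosin gene myh11a, were not analysed here.

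**Figure D4:**
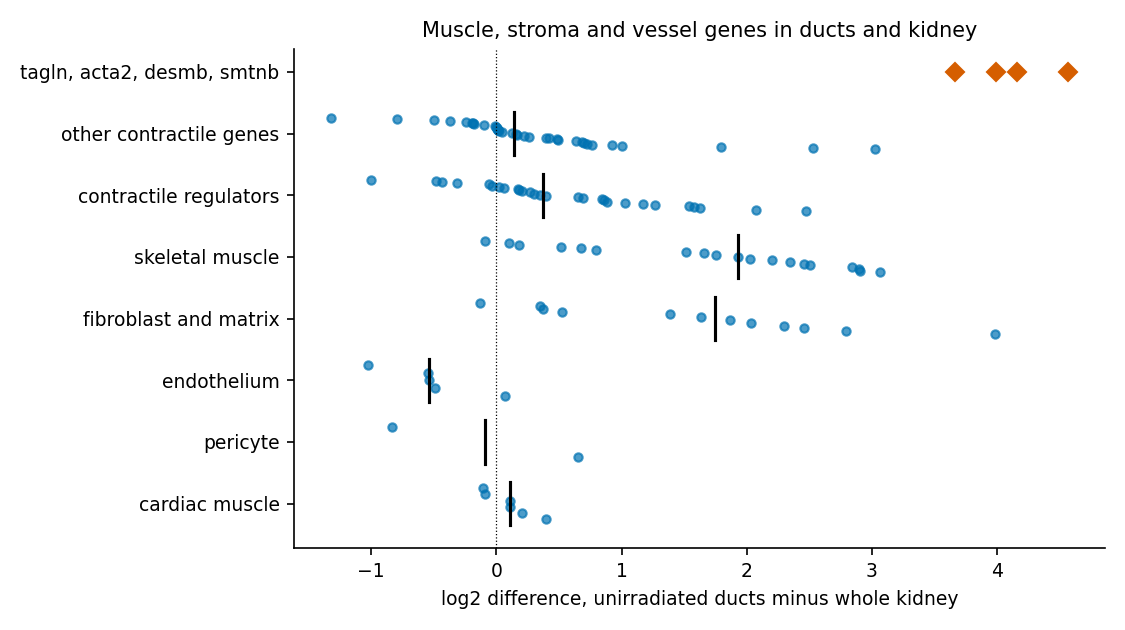
Log2 difference between unirradiated ducts and whole kidney for genes of muscle, stroma and vessels; each dot is a gene with 1 probe set, diamonds are the 4 smooth muscle genes and vertical bars list medians. The diamonds lie between 3.67 and 4.56, the other contractile genes spread around a median of 0.14, and skeletal muscle genes around 1.93.

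The array measured 28 transcription factors and signals that act on smooth muscle, and on other tissues too. In unirradiated ducts 0 were lower (3.33% of all genes) and 4 were higher (14.3%, against 4.11% of all genes), with a median of 0.37. They were the platelet-derived growth factor gene pdgfab (2.47 ± 0.21, limma adjusted p = 0.00601), the T-box factor gene tbx2b (2.07 ± 0.31), the Notch ligand gene jag1b (1.58 ± 0.30) and the Krüppel-like factor gene klf2a (1.54 ± 0.30). In irradiated ducts 6 were higher (21.4%, against 6.4% of all genes). They were these and the genes of the hedgehog ligand ihha (2.72 ± 0.31, limma adjusted p = 0.0079) and the forkhead factor foxc1a (0.89 ± 0.17). The Notch ligand gene jag1a was lower (-0.81 ± 0.17), as were 5.17% of all genes. Between the duct groups 0 of 28 were called by limma, against 0.137% of all genes. The serum response factor gene srfa was under the array medians on all arrays (3.81 to 4.54), and the probe set of its coactivator gene mrtfab with the higher level stood at -1.38 ± 0.34 in irradiated ducts (limma adjusted p = 0.0582). The second mrtfab probe set was lower in both duct groups, at -1.11 ± 0.20 in unirradiated and -1.69 ± 0.20 in irradiated ducts (limma adjusted p = 0.0347 and 0.00849). In unirradiated ducts 2 regulators were called higher without either irradiated array (422 calls on the whole array), 7 without kidney replicate 2 (3373 calls), and 0 without either unirradiated array, where nothing was called. In irradiated ducts 3 and 1 were called without irradiated replicates 1 and 2 (337 and 308 calls).

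Receptors and channels of contraction were sparse on the array, with 7 of 35 measured. The endothelin receptor gene ednraa was the single gene called, lower in unirradiated ducts (-1.49 ± 0.31, limma adjusted p = 0.0472), as were 3.33% of all genes. It read 5.56 and 4.67 there, 6.57 and 6.34 in irradiated ducts, and 6.70 and 6.50 in kidney. Its ligand gene edn1 stood at -1.09 ± 0.32 (limma adjusted p = 0.0985).

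Markers of other tissues were measured beside these genes. Of 19 skeletal muscle genes, 7 were higher in unirradiated ducts (36.8%, against 4.11% of all genes) and 4 in irradiated ducts (21.1%, against 6.4%). The medians were 1.93 and 0.78, against -0.04 and -0.07 over all genes. The largest differences among the called genes were 3.07 ± 0.60 for the actin gene acta1a, 2.90 ± 0.53 for the troponin gene tnnt3b and 2.84 ± 0.44 for the myosin light chain gene mylz3. In unirradiated ducts 3 were called without either irradiated array (422 calls on the whole array) and 0 without either unirradiated array, where nothing was called. In irradiated ducts 1 was called without either irradiated array (337 and 308 calls).

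The summed level of the skeletal list, on a log2 scale, was 11.79 and 12.85 in unirradiated ducts, 11.82 and 11.34 in irradiated ducts, and 10.02 and 10.20 in kidney. Unirradiated replicate 2 was thus the highest for skeletal muscle, with 17 of 19 genes above replicate 1, while the 4 smooth muscle genes differed by at most 0.26 between these arrays. In the irradiated pair skeletal muscle genes were mostly higher in replicate 1, 15 of 19, and all 4 smooth muscle genes were higher in replicate 2. Over all genes, replicate 1 was the higher for 49.3% in the unirradiated and 52% in the irradiated pair. The skeletal list genes acta1a and actc1a went the other way in both pairs. Replicate 1 minus replicate 2 was 0.79 and -1.69 for acta1a, and 0.68 and -0.20 for actc1a. Between the duct groups 0 of 19 skeletal muscle genes had a positive irradiated minus unirradiated difference. The median was -0.55, against -0.02 over all genes. All 4 smooth muscle genes were negative in this contrast too, but the intervals of tagln, acta2 and desmb lay on both sides of 0. Without irradiated replicate 1 acta2 and desmb turned positive. The skeletal genes tnnt3b and actc1a did too, while the rest of that list stayed negative. Their values on irradiated replicate 2 were 8.77 and 7.24, against unirradiated means of 8.27 and 7.15. With control centring all 4 smooth muscle genes turned positive, and the median over the whole array went from -0.05 to 1.30. That change of sign is therefore not particular to these genes. The part of skeletal muscle in the smooth muscle values was not tested. Cardiac muscle genes, 6 measured, had 0 called in either duct group by limma, and the difference medians were 0.11 and -0.05.

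Actins of different muscles have nearly the same protein sequence. The acta1a probe set was at 8.78 and 7.99 in unirradiated ducts, 5.25 and 6.94 in irradiated ducts, and 5.67 and 4.97 in kidney, a course unlike that of acta2. The striated muscle actin gene actc1b had 4 probe sets, which differed. The one used was higher in both duct groups, by 2.50 and 1.96, and another by 2.93 and 1.96. A different one stood at 0.10 and -0.15, with values of 3.22 to 3.54, under the array medians. The remaining one fell below kidney in unirradiated ducts (-1.40, limma adjusted p = 0.0489). Whether probes of one actin gene also bind transcripts of another was not tested.

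Matrix and stromal genes were higher in ducts as well. Of 12 measured, 4 were higher in unirradiated ducts (33.3%, against 4.11% of all genes) and 9 in irradiated ducts (75%, against 6.4%). The medians were 1.75 and 2.21, and 0 were lower. The periostin gene postnb was higher by 3.98 ± 0.79 and 3.71 ± 0.79 (limma adjusted p = 0.0426 and 0.0406), and the fibronectin gene fn1b was higher in unirradiated ducts by 2.79 ± 0.31 (limma adjusted p = 0.0107). The summed level of the list was 13.15 to 13.51 in unirradiated ducts, 13.46 to 14.11 in irradiated ducts and 10.83 to 11.88 in kidney. In unirradiated ducts 2 were called without either irradiated array (422 calls on the whole array), 8 without kidney replicate 1 (1757 calls), and 0 without either unirradiated array, where nothing was called. In irradiated ducts 3 were called without either unirradiated array (783 calls), and 2 and 1 without irradiated replicates 1 and 2 (337 and 308 calls).

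Endothelial genes were not among those called higher. Of 5 measured, 0 were higher by limma, and 1 was lower in each duct group, tie1 in unirradiated ducts (-1.02 ± 0.22, limma adjusted p = 0.0482) and fli1 in irradiated ducts (-0.92 ± 0.21, limma adjusted p = 0.0496). Over all genes 4.11% were higher and 3.33% lower in unirradiated ducts, and 6.4% and 5.17% in irradiated ducts. The vascular receptor gene kdrl read 0.07 ± 0.21. The summed endothelial level was 11.10 to 11.34 in ducts and 11.42 to 11.59 in kidney. Pericyte genes, cells that wrap capillaries, had 2 of 9 listed members measured, rgs5a at -0.84 ± 0.52 and notch3 at 0.65 ± 0.22, and neither passed. Another probe set of rgs5a had the opposite sign in unirradiated ducts, at 0.18 ± 0.29 (limma adjusted p = 0.735).

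The ducts themselves and the blood of the kidney were described with short lists, chosen with earlier results of these data known. Duct epithelium genes were higher for 8 of 12 in unirradiated and 11 of 12 in irradiated ducts. In unirradiated ducts f11r.1, the current name of jam1a, was at 1.19 ± 0.16 and gata3 at 2.96 ± 0.26. The reporter used to isolate the ducts is named for jam1a, so these counts are no independent check of the dissection. Erythroid genes were lower for 3 of 7 in both duct groups and leukocyte genes for 3 and 6 of 7. The leukocyte gene mpx stood at 1.46 ± 0.40 in irradiated ducts (limma adjusted p = 0.0791). Its other probe sets were at 3.01, 1.18 and -0.74 there (limma adjusted p = 0.0339, 0.0406 and 0.0523). Over all genes, 4.11% and 6.4% were higher in unirradiated and irradiated ducts, and 3.33% and 5.17% were lower. The GAPDH 3' minus 5' difference, a sign of RNA integrity, was 1.16 and 2.52 in unirradiated ducts, 1.13 and 0.97 in irradiated ducts, and 0.55 and 0.91 in kidney. The same difference for the control probe sets of acta1, a skeletal muscle actin, was 2.12 and 3.82 in unirradiated ducts, 2.88 and 1.28 in irradiated ducts, and 0.84 and 0.72 in kidney. It was higher on all 4 duct arrays than in kidney, and higher on irradiated replicate 1, where all 4 genes read lower, than on replicate 2. The skeletal muscle actin gene acta1a itself read 5.67 and 4.97 in kidney, under the array medians. The part of its level in the 3' minus 5' difference was not tested, nor was that of RNA integrity in the values. Hybridisation controls averaged 10.86 and 11.37 in unirradiated and 9.70 and 9.85 in irradiated ducts. Centred on them, the differences of the 4 genes from kidney were 2.14 to 3.04 in unirradiated and 3.04 to 4.10 in irradiated ducts. The median over the whole array went from 0.01 to -1.52 and from -0.05 to -0.23. The 4 genes were chosen on these differences, so nothing is read from their sign.

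Likeness of pattern was measured over the 6 arrays, as the root mean square difference in log2 units between a gene's values, centred on their mean, and the centred mean of the 4 genes. The 6 points include the difference between ducts and kidney on which the 4 genes were chosen. The median over 8777 other genes was 1.92. The 4 genes themselves were at 0.21 for tagln, 0.27 for smtnb, 0.35 for acta2 and 0.46 for desmb. Each of the 4 is part of the mean it is measured from, so nothing is read from their nearness. The 12 nearest others, from 0.32 to 0.52, were ntd5, postnb, the hedgehog-binding protein gene hhip, linc.pou2af1, the secreted chaperone gene clu, the lipid transporter gene abca12, tfpil, znf185, the chemokine gene cxcl14, the fatty acid-binding protein gene fabp2, flncb, and evplb, which encodes envoplakin of stratified epithelia.

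The 4 genes were also compared in pairs, over the same 6 arrays. The closest pair was tagln and acta2 at 0.18, and postnb was nearly as close to each of them, at 0.18 and 0.20. The postnb values are those of 1 of its 2 probe sets. That probe set read 7.59 and 5.18 in kidney, and the other read 5.03 and 5.07. The gene desmb was 0.65 from tagln and 0.78 from acta2, distances that include the kidney arrays, where desmb was not shown to be above background. Its nearest gene, named after its values were seen, was scel at 0.24, which encodes sciellin of epithelial envelopes. The gene smtnb was 0.41 from tagln and 0.42 from hhip.

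**Figure D5:**
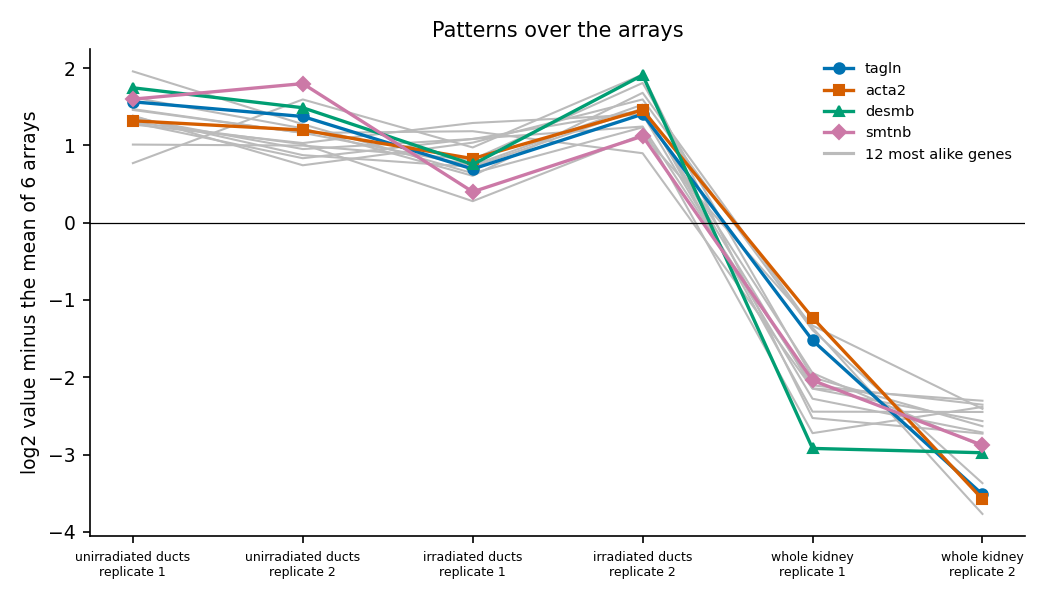
Log2 values centred on the mean of 6 arrays for tagln, acta2, desmb and smtnb (coloured) and the 12 genes most like their mean (grey); lines join the values of a gene and imply no order of arrays. The tagln and acta2 lines run together and part from desmb at whole kidney replicate 1, where desmb was not shown to be above background.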

How the data were processed

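The deposited values are on a log2 scale and were computed by the authors with the RMA method of the affy package, per the submitters' processing notes, which give no versions. RMA subtracts background, forces one distribution on all arrays and combines probes into 1 value per probe set. The values ran from 2.20 to 14.47 and were used as deposited. The number of arrays limits the precision.

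Genes were named from the platform annotation, with symbols updated by Entrez ID through a current RefSeq table (GRCz12tu, names only). Of 15617 probe sets, 115 controls were left out, 10795 of the others named 1 gene, 135 several and 4572 none. For list genes with several probe sets, the one highest on average was taken.

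Groups were compared with limma (version 3.58.1, R 4.3.3), 1 mean per group, all 6 arrays, 3 residual and 2.83 prior degrees of freedom, two-sided p-values adjusted by Benjamini-Hochberg over 15502 probe sets and called under 0.05. Replicates are pools, and p-values measure the spread between them. The fit was tested on simulated data. An exact permutation test on 2 against 2 arrays cannot pass the threshold and was not used. The members and the 11 gene lists were chosen with earlier results of these data known. Up to 8 genes a list were named, those past the threshold first, then the largest differences; regulators could all be named, and the 12 genes of nearest pattern. Exceptions are said. Alternatives were a replicate block, the compared groups alone, a trended robust prior, array weights, filters at a mean log2 of 5 and 7, centring on 18 hybridisation control probe sets, another probe set per gene, and each array left out.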

Additional observations from a re-analysis of the deposited data

How the results depend on the processing

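None of the 4 genes was called between irradiated and unirradiated ducts under any of 13 alternatives, with limma adjusted p from 0.129 to 0.99; in 5 of these, the replicate block and each duct array left out, 0 of 15502 probe sets were called (923 to 1906 at an unadjusted p under 0.05), so they say nothing about stability. Leaving out either kidney array gave the same fit as the duct arrays alone, so these alternatives are not separate checks. The differences of the 4 genes from kidney kept their sign throughout, but the genes were chosen for that difference, so nothing is read from this. The count of called probe sets moved more. For unirradiated ducts against kidney it was 1126, and 422 on these groups alone, 615 with array weights, 699 with a mean log2 of 7 or more (fewer tested), 2155 with hybridisation control centring (41 higher, 2114 lower) and 0 to 3373 without single arrays. For irradiated ducts against kidney it was 1620, and 783 on these groups alone, 961 with the filter at 7, 225 with control centring and 308 to 3183 without single arrays. For irradiated against unirradiated ducts it was 26, and 217 on these groups alone, 243 with array weights, 12 with the filter at 7, 150 with control centring and 0 to 217 without single arrays. Other contractile genes called higher, 3 in each duct group, became 0 with control centring, 0 to 5 without single arrays in unirradiated ducts and 1 to 5 in irradiated ducts. Leaving out 1 array of the group not compared gave the same fit as the compared groups alone. The cause of the other changes was not tested. The replicate block gave 0 calls between the duct groups (1906 at an unadjusted limma p under 0.05), 812 and 1393 against kidney, and no change of call for the 4 genes there. Same-numbered arrays shared only a number: their deviations correlated at -0.0976, 0.0633 and -0.0972. The counts of regulators, skeletal muscle and matrix genes without single arrays were added after seeing the data. With control centring they fell to 0, 0 and 1 in unirradiated ducts and 0, 0 and 2 in irradiated ducts. Values under the array medians limit desmb and smtnb in kidney.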
